A study of Mus musculus with 32 samples.

Results

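Klhl30, Ak1, Lce1f, Ctsw, Ctla2a, Mab21l4, Ctse and Spsb1 are 8 of the 18193 genes that had a probe set of a single gene symbol on the array, and they carry 14 of its 45037 probe sets. They were chosen by measured values, as little-studied genes among the largest increases of total RNA with TGFβ in NMuMG cells. That increase is therefore given below as a description, without a test. Their RNA was then followed in E1KD cells, in the polysomal and monosomal pools of both cell lines and in immunoprecipitates of NMuMG cells.

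NMuMG is a mouse mammary epithelial line that undergoes an epithelial to mesenchymal transition (EMT) when treated with TGFβ. E1KD is a derivative of it with a knockdown of hnRNP E1, an RNA-binding protein encoded by Pcbp1, and has a mesenchymal form without TGFβ. Each line was assayed with TGFβ2 (5 ng/ml, 24 h) and untreated, as total RNA and as polysomal and monosomal RNA of sucrose gradients. Immunoprecipitates of TGFβ-treated and untreated NMuMG cells were made with an antibody to hnRNP E1 or with IgG. Each of the 16 groups had 2 arrays, 32 in all, which the study's methods call independent samples without saying whether they were separate cultures, so p-values cover the spread between those samples. The E1KD line is a single knockdown line, and whether the total RNA and the pools came from the same dishes is not stated.

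TGFβ binds receptor kinases that phosphorylate Smad proteins, which enter the nucleus and, often together with AP-1 factors, change transcription. In mammary epithelium the response lowers cell adhesion genes and raises matrix and cytoskeletal genes. hnRNP E1 is known in these cells as a protein that holds certain mRNAs back from translation until TGFβ leads to its phosphorylation.

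The 8 genes have no shared function. Klhl30 encodes a kelch-like protein, of a family in which many members bring substrates to cullin ubiquitin ligases. Spsb1 encodes a SPRY domain and SOCS box protein, likewise a substrate adaptor of a ubiquitin ligase, which is known to act on the TGFβ type II receptor. Ctsw encodes cathepsin W, a papain-like cysteine protease known from cytotoxic lymphocytes. Ctse encodes cathepsin E, an aspartic protease known from gastric surface cells and immune cells. Ctla2a encodes an inhibitor of cathepsins that resembles a cathepsin propeptide. Ak1 encodes a cytosolic adenylate kinase, which balances adenine nucleotides and is abundant in muscle. Lce1f belongs to the late cornified envelope genes of the outer skin. Mab21l4 belongs to the Mab-21 family, and its human counterpart is known in keratinocyte differentiation.

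By RefSeq on GRCm38.p6 the genes lie on 6 chromosomes, so they are not a cluster. Klhl30 lies at chr1:91351073-91362404, Mab21l4 at chr1:93151354-93160956 and Ctse at chr1:131638314-131675507. Ak1 lies at chr2:32621758-32635058, Lce1f at chr3:92718696-92720350, Spsb1 at chr4:149896283-149955006, Ctla2a at chr13:60934155-60936625 and Ctsw at chr19:5465043-5468628. The 250 bases before the first listed start are shown for the 4 members that the promoter table holds (RefSeq, GRCm38.p6), because their RNA rose together in the polysomal pool of NMuMG cells. Capitals mark matches on either strand to the AP-1 motif TGANTCA and to the Smad box CAGAC, read on the other strand as GTCTG. The windows are chr13:60936626-60936875 on the minus strand for Ctla2a, chr1:93160949-93161198 on the minus strand for Mab21l4, chr2:32621508-32621757 on the plus strand for Ak1 and chr4:149955007-149955256 on the minus strand for Spsb1.
Ctla2a: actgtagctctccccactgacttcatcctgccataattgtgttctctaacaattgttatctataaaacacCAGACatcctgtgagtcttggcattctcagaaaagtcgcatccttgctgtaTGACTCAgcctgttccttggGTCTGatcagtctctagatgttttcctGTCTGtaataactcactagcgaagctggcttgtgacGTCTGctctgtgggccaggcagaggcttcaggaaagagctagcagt
Mab21l4: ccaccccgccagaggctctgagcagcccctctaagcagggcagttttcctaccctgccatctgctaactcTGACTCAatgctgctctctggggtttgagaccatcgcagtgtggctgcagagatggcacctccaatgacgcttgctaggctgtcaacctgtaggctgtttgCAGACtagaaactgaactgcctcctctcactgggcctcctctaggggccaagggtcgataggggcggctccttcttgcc
Ak1: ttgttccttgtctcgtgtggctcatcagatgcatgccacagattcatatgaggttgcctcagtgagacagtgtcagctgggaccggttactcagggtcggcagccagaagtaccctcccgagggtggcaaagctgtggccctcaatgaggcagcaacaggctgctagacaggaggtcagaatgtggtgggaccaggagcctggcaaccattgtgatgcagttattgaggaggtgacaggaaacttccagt
Spsb1: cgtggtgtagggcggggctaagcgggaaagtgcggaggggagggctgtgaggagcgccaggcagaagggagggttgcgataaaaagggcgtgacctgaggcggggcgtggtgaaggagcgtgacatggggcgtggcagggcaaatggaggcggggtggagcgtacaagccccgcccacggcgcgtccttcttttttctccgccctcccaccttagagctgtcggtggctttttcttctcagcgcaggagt
The Ctla2a window holds 1 AP-1 match, which begins 129 bases before the start, and 4 Smad boxes. The Mab21l4 window holds 1 AP-1 match, 180 bases before the start, and 1 Smad box. The windows of Ak1 and Spsb1 hold neither, although 3 further start sites of Ak1 have 2 or 3 Smad boxes each. Of 32851 windows of the same length, 6.75% hold the AP-1 letters and 42.2% hold the Smad box, so the second match is common. A match describes these letters and is not evidence of binding.

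A probe set was tested when 8 or more of the 32 arrays had a log2 signal over 5.52, the overall median, and 25432 probe sets met this. Of the 14 probe sets of the 8 genes, 11 passed, and each gene had at least 1. Each gene is given by its probe set of highest mean over the 24 arrays of total and pooled RNA. Spsb1 has 4 probe sets, of which 3 passed and do not agree, and its values below are those of the first unless another is named. Values are log2 RMA signals, and a difference of 1 is a doubling of the signal. RMA scales the arrays toward a common distribution, so a level in a pool is relative to the other RNAs of that pool and not an amount. In RNA of whole cultures, fewer cells with an RNA and less RNA per cell cannot be told apart.

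The knockdown showed in its target. Pcbp1 signals were 8.44 to 10.86 in the 12 arrays of E1KD cells, against 13.08 to 13.30 in the 12 arrays of NMuMG total and pooled RNA. Within E1KD cells they were lower with TGFβ: 9.33 and 9.55 against 10.79 and 10.86 untreated in total RNA. Polysomal RNA read 9.13 and 9.25 with TGFβ against 9.98 and 10.07 untreated, and monosomal RNA 8.44 and 8.66 against 8.98 and 9.03. TGFβ comparisons within E1KD cells thus join arrays of unequal Pcbp1 signal, and its part in them was not tested. Of 7 epithelial genes 6 passed the filter: the keratins Krt8 and Krt18 ran from 13.85 to 14.72 in the 32 arrays, Krt19 from 11.20 to 13.68, the cadherin gene Cdh1 from 9.43 to 12.53, Epcam from 5.59 to 7.58 and Ocln from 4.55 to 9.48, while Cldn7 did not pass. Of 6 mesenchymal genes, Vim and Fn1 among them, 6 were higher in untreated E1KD than in untreated NMuMG polysomal RNA. Their median difference was 2.50, and the same test called 27.5% of probe sets higher and 22.1% lower. Of the 6 epithelial genes it called 2 higher and 2 lower, with a median of 0.12. Replicate arrays of a group correlated with r of 0.974 to 0.998 across probe sets.

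In total RNA of NMuMG cells the 8 genes were among the 15 largest increases of 12600 genes with TGFβ. Klhl30 read 9.29 and 9.38 with TGFβ, against 4.71 and 4.42 untreated, a difference of 4.77 (27.3-fold) and the largest of these genes. Ak1 read 9.30 and 9.32 with TGFβ, against 5.70 and 5.62 untreated, and ranked 2 with a difference of 3.65 (12.6-fold). Lce1f read 7.41 and 7.39 with TGFβ, against 4.47 and 4.32 untreated, a difference of 3.01. In each of these genes the untreated signals lay near or below the median of all values, and the treated signals lay above it.

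Ctsw read 8.30 and 8.35 with TGFβ, against 5.87 and 5.38 untreated (difference 2.70, rank 4). Ctla2a read 8.98 and 8.63 with TGFβ, against 6.52 and 6.21 untreated (2.44, rank 8). Mab21l4 and Ctse were well measured before treatment. Mab21l4 read 10.33 and 10.43 with TGFβ, against 8.05 and 8.09 untreated (2.31, rank 10). Ctse read 9.77 and 9.98 with TGFβ, against 7.53 and 7.70 untreated (2.26, rank 12), and Spsb1 read 8.46 and 8.65 with TGFβ, against 6.52 and 6.40 untreated (2.10, rank 15). The groups did not overlap for any of the 8, which the choice of these genes fixed.

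The 7 other genes within those 15 ranks include Gja1, which encodes a connexin of gap junctions (difference 2.69), Cldn4, a tight junction gene (2.53), and Il11, a cytokine gene and known TGFβ target (2.44). Just below Spsb1 stood Aldh1l1 (2.02), Ncam1 (2.00) and Fbln2 (1.94), so the step from the last member to the next gene was small. Probe sets of 4 members disagreed. The second probe sets of Ak1 and Lce1f, which did not pass the filter, differed by 0.43 and 0.21, and the fourth of Spsb1, also not passing, by 0.14. For Spsb1, the second probe set read 6.38 and 6.31 with TGFβ, against 6.04 and 6.07 untreated, and the third read 7.03 and 7.08 with TGFβ, against 6.11 and 5.72 untreated. For Ctse, the second probe set read 5.27 and 5.12 with TGFβ, against 5.08 and 4.94 untreated, below the median of all values.

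**Figure D1:**
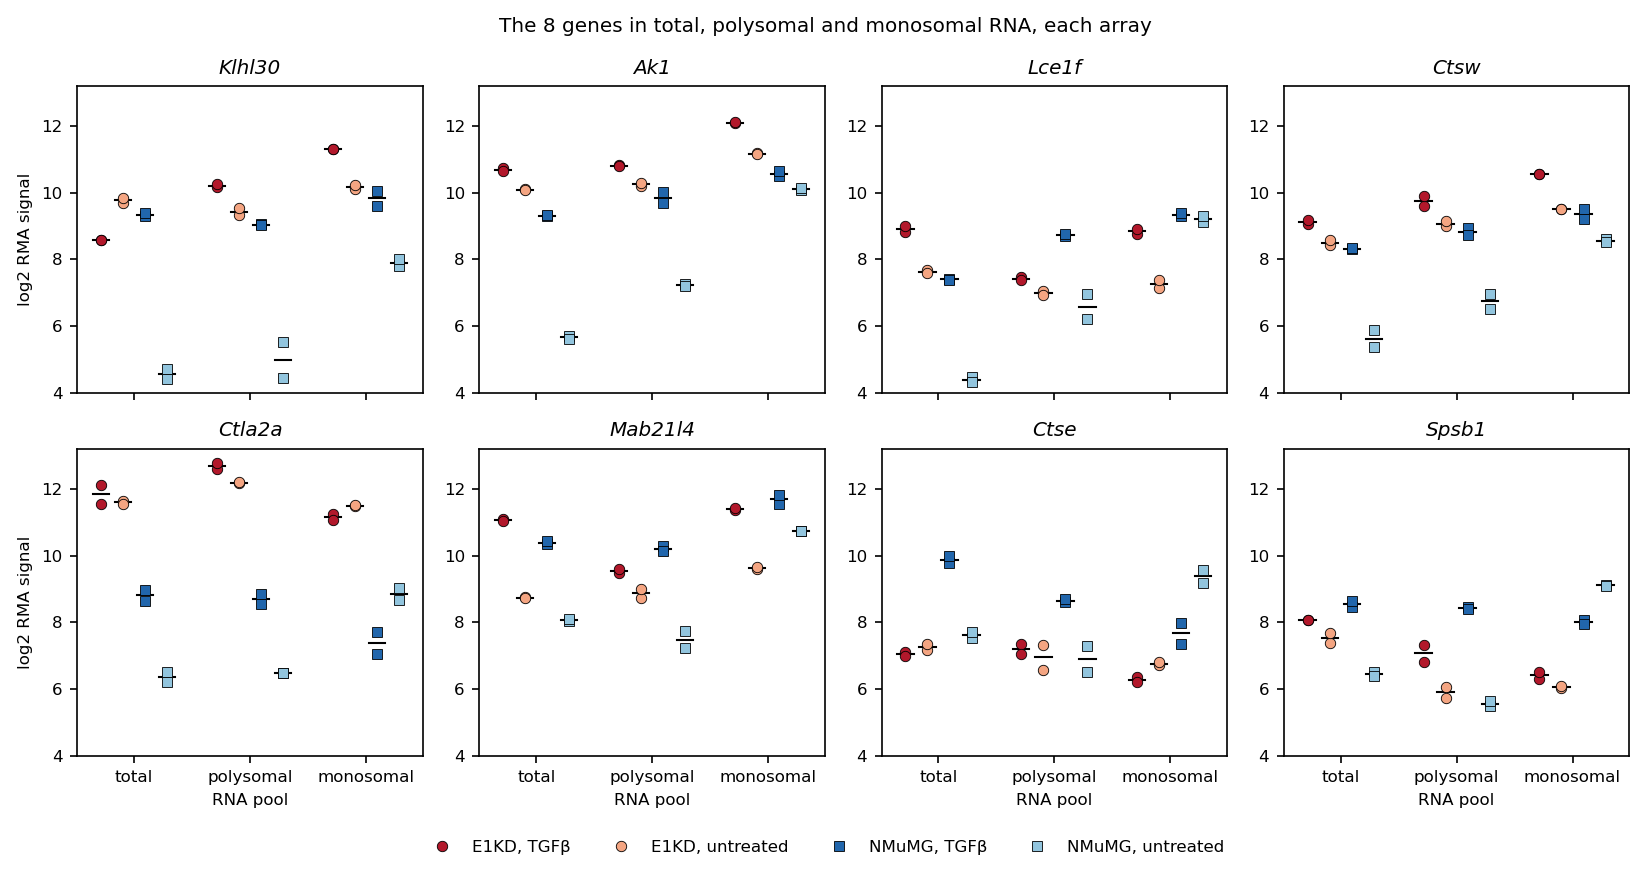
Log2 RMA signal of the 8 genes in total, polysomal and monosomal RNA, with a point for each array and a bar for the mean of 2 arrays. In total RNA of untreated NMuMG cells (pale squares) Klhl30, Ak1, Lce1f and Ctsw lay between 4.32 and 5.87, while the monosomal pool of the same cells read 7.79 to 10.14 for these genes.

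Untreated E1KD cells held 5 of the genes at or above the level that NMuMG cells reached with TGFβ. In total RNA Klhl30 read 9.70 and 9.85 in untreated E1KD cells, against 4.71 and 4.42 in untreated NMuMG cells, a difference of 5.21. Ctla2a read 11.63 and 11.55 in untreated E1KD cells, against 6.52 and 6.21 in untreated NMuMG cells (5.23), which is also above the 8.98 and 8.63 of TGFβ-treated NMuMG cells. Ak1 was 4.44 higher, Lce1f 3.24 and Ctsw 2.88. Spsb1 was 1.07 and Mab21l4 0.67 higher, and Ctse, at 7.18 and 7.36 in untreated E1KD cells against 7.53 and 7.70 in untreated NMuMG cells, was 0.35 lower. The untreated NMuMG arrays of this comparison are those that chose the genes, so these differences too are a description.

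The polysomal pool gave the same comparison on arrays that played no part in the choice. The choice of a large increase in NMuMG cells favours genes that are low in untreated NMuMG cells, so it may tilt this comparison upward too. There 5 of the 8 genes were higher in untreated E1KD cells, where 27.5% of probe sets were higher. Ctla2a read 12.16 and 12.21 in untreated E1KD cells, against 6.48 and 6.49 in untreated NMuMG cells (5.70, SE 0.22, limma adjusted p = 1.06e-11). Klhl30 read 9.32 and 9.53, against 4.44 and 5.52 in NMuMG (4.45, SE 0.24, limma adjusted p = 4.69e-10). Ak1 was 3.03 higher, Ctsw 2.32 and Mab21l4 1.39. The differences of Lce1f (0.42), Spsb1 (0.34) and Ctse (0.06) did not pass, with limma adjusted p = 0.0581, 0.0877 and 0.866. Lce1f was 3.24 higher in total RNA of untreated E1KD cells, while in the polysomal pool it read 7.04 and 6.94 in E1KD against 6.20 and 6.95 in NMuMG. Without the second untreated NMuMG polysomal array Lce1f was 0.79 higher (adjusted p = 0.000251).

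TGFβ moved the genes apart in total RNA of E1KD cells, in which 5 rose, Klhl30 fell, and Ctla2a and Ctse did not pass the test. Over all probe sets 11.4% rose and 9.75% fell. Mab21l4 rose most, with 11.08 and 11.04 with TGFβ against 8.75 and 8.72 untreated (2.33, SE 0.14, limma adjusted p = 1.40e-08). That equals its difference of 2.31 in NMuMG total RNA within the SE. Lce1f read 8.83 and 9.0 with TGFβ, against 7.67 and 7.60 untreated (1.28, SE 0.17, limma adjusted p = 6.27e-05).

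Klhl30 read 8.59 and 8.57 in TGFβ-treated E1KD cells, against 9.70 and 9.85 in untreated E1KD cells, and fell by 1.20 (SE 0.24, limma adjusted p = 0.00174). Ak1 was 0.59 higher with TGFβ (limma adjusted p = 0.000901), Ctsw 0.62 (0.0162) and Spsb1 0.55 (0.0212). Ctla2a read 11.55 and 12.12 with TGFβ, against 11.63 and 11.55 untreated (0.25, limma adjusted p = 0.507), and Ctse read 7.10 and 6.99, against 7.18 and 7.36 (-0.23, limma adjusted p = 0.629). The calls of Ctsw and Spsb1 were lost without single arrays: 3 or 4 members rose when any 1 of the 4 arrays was left out. Centring each array on Actb and Gapdh moved the median of all probe sets up by 0.63, which left Klhl30 at -0.57 (adjusted p = 0.0701).

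**Figure D2:**
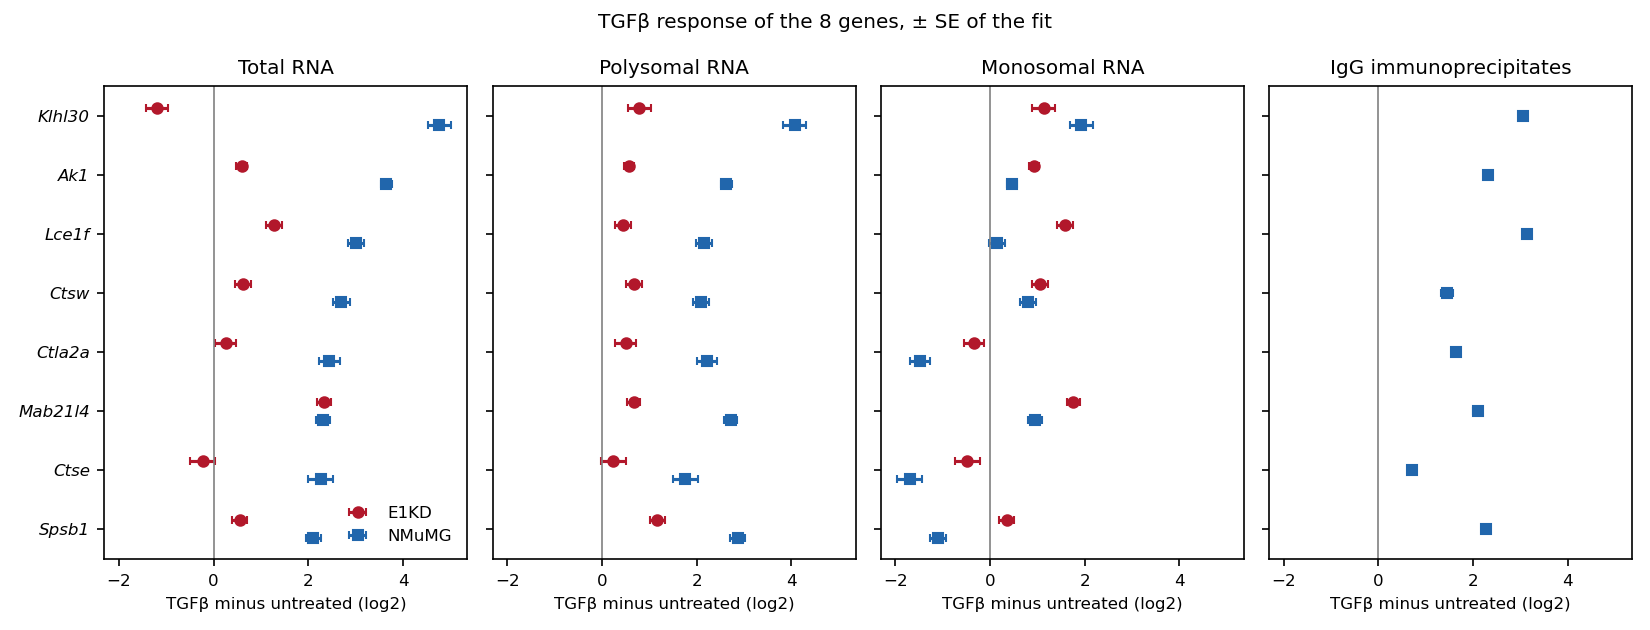
TGFβ-treated minus untreated log2 signal (x axis) of the 8 genes (rows) in E1KD cells (circles) and NMuMG cells (squares), with the SE of the fit. In polysomal RNA the NMuMG differences ran from 1.76 to 4.07 and the E1KD differences from 0.24 to 1.17, and in total RNA Mab21l4 had 2.33 in E1KD and 2.31 in NMuMG. The NMuMG differences of total RNA chose the genes, and the last panel has the IgG libraries of NMuMG cells.

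In the polysomal pool of NMuMG cells, which holds RNA loaded with several ribosomes, the 8 genes rose with TGFβ, where 18.8% of probe sets rose. Klhl30 read 9.06 and 9.03 with TGFβ, against 4.44 and 5.52 untreated (4.07, 16.7-fold, SE 0.24, limma adjusted p = 1.16e-08). Spsb1 read 8.46 and 8.39 with TGFβ, against 5.49 and 5.63 untreated (2.87, SE 0.16, limma adjusted p = 7.75e-09). Mab21l4 read 10.27 and 10.13 with TGFβ, against 7.73 and 7.23 untreated (2.72, SE 0.14, limma adjusted p = 5.11e-09). These arrays are other hybridizations than those that chose the genes, but of the same line and treatment, so the choice favours a rise here too.

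Ak1 was 2.63 higher in the polysomal pool with TGFβ, Ctla2a 2.22, Lce1f 2.15 and Ctsw 2.09. Ctse had the smallest difference, at 8.61 and 8.69 with TGFβ against 6.51 and 7.28 untreated (1.76, SE 0.26, limma adjusted p = 8.80e-05). The median of the 8 was 2.42, against 0.02 over all probe sets. The second probe set of Spsb1 differed by 0.05 and that of Ctse by 0.09, and neither passed, while the third of Spsb1 was 1.09 higher (limma adjusted p = 0.00277).

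In E1KD cells the polysomal response was smaller. With TGFβ 4 of the 8 genes rose, where 3.04% of probe sets did. Spsb1 read 6.82 and 7.32 with TGFβ, against 5.73 and 6.07 untreated (1.17, SE 0.16, limma adjusted p = 0.000851). Ctsw was 0.68 higher (0.0353), Mab21l4 0.67 (0.0157) and Ak1 0.57 (0.00834). Klhl30 read 10.17 and 10.25 with TGFβ, against 9.32 and 9.53 untreated, and its difference of 0.79 did not pass (limma adjusted p = 0.0752). Lce1f (0.44), Ctla2a (0.50) and Ctse (0.24) did not pass. These calls rest on the spread pooled over the 12 groups of total and pooled RNA: limma on the 4 arrays alone called none of the 8 (7 of them at an unadjusted p under 0.05), and leaving out single arrays left 1 to 3.

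The difference of the polysomal response between the lines was tested as an interaction, E1KD minus NMuMG. By the probe set that stands for each gene it was negative for the 8 genes, where 9.52% of probe sets had a lower response in E1KD. The genes were chosen for a large TGFβ response of NMuMG cells in total RNA, so the choice itself favours this sign. Klhl30 had -3.28 (SE 0.34, limma adjusted p = 1.87e-05), Ak1 -2.07 (1.46e-06) and Mab21l4 -2.06 (1.11e-05). Lce1f and Ctla2a had -1.72 each, Spsb1 -1.70, Ctse -1.52 and Ctsw -1.42 (limma adjusted p = 0.00101). The adjusted p of Ctse was 0.0102, and it was 0.0520 without the second untreated E1KD array. The second probe set of Ctse had -0.17 (limma adjusted p = 0.764), and the second and the third of Spsb1 had 0.14 (0.797) and -0.93 (0.0796), so none of these 3 was called. This test and the comparison of untreated cells share the untreated NMuMG and E1KD polysomal arrays, so a gene that was high in untreated E1KD cells enters both. For Lce1f, Ctse and Spsb1 the untreated lines differed by 0.42, 0.06 and 0.34.

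The monosomal pool, made of the fractions of ribosomal subunits and single ribosomes, stood apart in untreated NMuMG cells. Klhl30 read 7.79 and 8.02 in the monosomal pool of untreated NMuMG cells, against 4.71 and 4.42 in their total RNA. Lce1f read 9.12 and 9.30 there against 4.47 and 4.32 in total RNA, and Ak1 10.09 and 10.14 against 5.70 and 5.62. Mean polysomal signals of these cells also exceeded total ones for Lce1f (6.58 against 4.40), Ak1 (7.23 against 5.66) and Ctsw (6.75 against 5.63). For Klhl30 and Ctla2a they were slightly higher, and for Mab21l4, Ctse and Spsb1 lower. The monosomal signal of the 8 genes exceeded the total signal by 1.76 to 4.82, while the median over all probe sets was 0.11 and 0.751% of probe sets exceeded it by as much as the least of the 8. The low total RNA arrays chose the genes, so part of this gap was fixed by the choice.

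The gap between the pools of untreated NMuMG cells used none of the arrays that chose the genes. The choice favours genes that are low in untreated NMuMG cells, so it may still tilt this gap. Polysomal minus monosomal signal ran from -3.55 (Spsb1) to -1.82 (Ctsw) for the 8 genes, where 8.22% of probe sets were at -1.82 or lower and the median was -0.14. Spsb1 read 5.49 and 5.63 in the polysomal pool, against 9.11 and 9.10 in the monosomal pool. Mab21l4 read 7.73 and 7.23 in the polysomal pool, against 10.72 and 10.74 in the monosomal pool. The next results rest on these monosomal arrays.

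With TGFβ the monosomal pool of NMuMG cells split the genes into 4 that rose, 3 that fell and Lce1f, which did not pass. This pool changed widely, since 34.3% of all probe sets rose and 41.1% fell. Klhl30 read 9.60 and 10.06 with TGFβ, against 7.79 and 8.02 untreated (1.93, SE 0.24, limma adjusted p = 2.41e-06). Mab21l4 was 0.95 higher, Ctsw 0.80 and Ak1 0.46. Ctse fell by 1.70, Ctla2a fell by 1.48 and Spsb1 fell by 1.10. Ctla2a read 7.04 and 7.72 with TGFβ, against 8.67 and 9.04 untreated (limma adjusted p = 1.58e-05), and Ctse read 7.36 and 7.99, against 9.19 and 9.56 (limma adjusted p = 2.14e-05). The second probe set of Spsb1 went the other way, with 8.20 and 7.76 with TGFβ against 7.01 and 6.98 untreated (0.99, limma adjusted p = 0.000201). Centring on Actb and Gapdh moved the median of all probe sets by -0.41 and left Klhl30 as the 1 member that rose. Lce1f had 0.14 as reported (limma adjusted p = 0.487), and after quantile normalization of the deposited signals it was 0.62 higher (limma adjusted p = 0.0225).

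The polysome shift compares both pools: it is the TGFβ response of the polysomal signal minus the TGFβ response of the monosomal signal. It was positive for the 8 genes in NMuMG cells, where 40.1% of probe sets were called higher. The genes were chosen for a large TGFβ response of NMuMG total RNA, so the choice bears on both terms. How far it favours this sign was not tested. The shift of Spsb1 was 3.96 (SE 0.22, limma adjusted p = 1.38e-09), of Ctla2a 3.69 (4.61e-08) and of Ctse 3.46 (5.36e-07). Ak1 had 2.18, Klhl30 2.14, Lce1f 2.02, Mab21l4 1.77 and Ctsw 1.30. For Spsb1, Ctla2a and Ctse the polysomal signal rose and the monosomal signal fell. For Klhl30, Ak1, Ctsw and Mab21l4 both rose, the polysomal signal more. The median of the 8 was 2.16, against 0.09 over all probe sets. The shift of Spsb1 was -0.94 by its second probe set (limma adjusted p = 0.00532) and 1.35 by the third (0.00247).

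**Figure D3:**
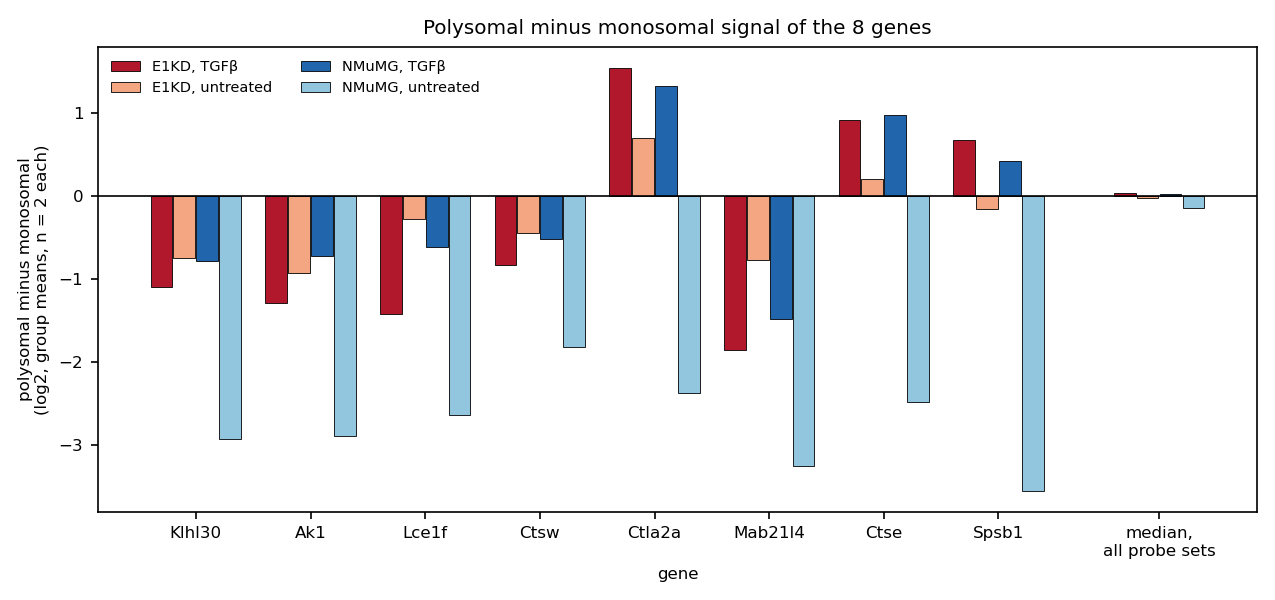
Polysomal minus monosomal log2 signal of the 8 genes, from means of 2 arrays each, in E1KD and NMuMG cells with TGFβ and untreated, with the median of all tested probe sets at the right. In untreated NMuMG cells the 8 bars lie between -3.55 and -1.82, and with TGFβ Ctla2a, Ctse and Spsb1 lie above 0 in both lines.

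After TGFβ the 8 genes lay on different sides of the gradient, and by the probe sets that stand for them each lay on the same side in both lines. In TGFβ-treated NMuMG cells 3 genes had more polysomal than monosomal signal (27.6% of probe sets) and 5 had less (22.1% of probe sets). In TGFβ-treated E1KD cells the same 3 were higher (34.0% of probe sets) and the same 5 lower (26.6%). The share of all probe sets on the same side in both lines is not given here, so this agreement cannot be called particular to the 8. Ctla2a, the cathepsin inhibitor, read 12.60 and 12.77 in the polysomal pool of treated E1KD cells, against 11.25 and 11.05 in the monosomal pool (1.54, SE 0.22, limma adjusted p = 1.43e-05). In treated NMuMG cells its difference was 1.32 (limma adjusted p = 8.42e-05). Ctse had 0.92 in E1KD and 0.98 in NMuMG, and Spsb1 had 0.67 in E1KD and 0.42 in NMuMG. For these genes the call rests on 1 probe set each: in E1KD the second of Ctse had 0.08 and the second and the third of Spsb1 had -0.30 and -0.40, and in NMuMG they had 0.35, -0.22 and 0.01, none of them called.

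Mab21l4 leaned most to the monosomal pool, with 9.47 and 9.59 polysomal against 11.36 and 11.42 monosomal in treated E1KD cells (-1.86, SE 0.14, limma adjusted p = 1.54e-08). In treated NMuMG cells its difference was -1.48 (limma adjusted p = 2.34e-07). Lce1f had -1.42 in E1KD and -0.62 in NMuMG, Ak1 -1.29 and -0.72, Klhl30 -1.10 and -0.79, and Ctsw -0.83 and -0.52, each with E1KD first. The call of Spsb1 in NMuMG (adjusted p = 0.0398) was lost when any 1 array was left out. Those of Klhl30 and Ctsw were lost without the second NMuMG monosomal or polysomal array, and that of Ctse without the first monosomal array, where it was 0.66 (0.0863). Centring on Actb and Gapdh moved the median of all probe sets by 0.39 in NMuMG and left Mab21l4 as the 1 member that was lower.

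In the monosomal pool of E1KD cells 5 genes rose with TGFβ, where 12.9% of probe sets did. Mab21l4 read 11.36 and 11.42 with TGFβ, against 9.60 and 9.66 untreated (1.76, SE 0.14, limma adjusted p = 9.99e-07). Lce1f was 1.58 higher, Klhl30 1.13, Ctsw 1.05 and Ak1 0.93. The 3 genes that fell in the NMuMG monosomal pool did not pass here: Ctse had -0.48, Ctla2a -0.34 and Spsb1 0.35. The second and the third probe sets of Spsb1 were called higher here, by 0.53 (limma adjusted p = 0.0348) and 0.95 (0.00588). Klhl30 was thus higher with TGFβ in the E1KD monosomal pool while it was lower in E1KD total RNA, on the same scale of TGFβ-treated minus untreated signal.

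IgG immunoprecipitates, the control for the hnRNP E1 antibody, showed the TGFβ response of the genes as well. The 8 genes were higher in IgG libraries of TGFβ-treated cells, where 2.91% of probe sets were. The line and treatment are those that chose the genes, so the choice favours a rise here too. Lce1f read 8.98 and 9.03 with TGFβ, against 5.94 and 5.79 untreated (3.14, SE 0.08, limma adjusted p = 0.00106). Klhl30 read 8.53 and 8.56 with TGFβ, against 5.53 and 5.44 untreated (3.06, SE 0.08, limma adjusted p = 0.00106). Ak1 was 2.32 higher, Spsb1 2.28, Mab21l4 2.10, Ctla2a 1.64 and Ctsw 1.45. Ctse again had the least, with 7.23 and 7.22 with TGFβ against 6.51 and 6.50 untreated (0.72, limma adjusted p = 0.00742).

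This fit used the 4 IgG arrays and had 2 residual degrees of freedom. Without any 1 of the 4 arrays limma called none of the 25432 probe sets, while the 8 genes kept an unadjusted p under 0.05. In a fit of the 8 immunoprecipitation arrays with the hnRNP E1 libraries as titled none of the 8 was called, and with those libraries grouped by array number the 8 were.

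The hnRNP E1 libraries could not be compared by treatment, because their titles and descriptions disagree on which were treated. The titles give TGFβ for libraries 14A and 13B, while the descriptions give it for 14A and 14B. The 8 genes followed the number. Klhl30 read 10.48 in 13A and 10.10 in 13B, against 7.26 in 14A and 7.15 in 14B, and Spsb1 read 10.31 in 13A and 10.17 in 13B, against 7.82 in 14A and 7.73 in 14B. Array number 14 minus 13 ran from -3.09 (Klhl30) to -1.09 (Ctse) over the genes, while as titled TGFβ minus control ran from -0.16 (Lce1f) to 0.34 (Ctsw).

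Against the IgG libraries of TGFβ-treated cells, both libraries of number 13 were higher for 6 genes and lower for Ctla2a and Ctse. The share of all probe sets with either order is not given here. The gap was wide for Klhl30, with 10.48 in 13A and 10.10 in 13B, against 8.53 and 8.56 in those IgG libraries. It was narrow for Mab21l4, which read 11.44 in 13A and 11.42 in 13B, against 11.03 and 11.26 in those IgG libraries. Averaged over the 4 libraries of each antibody, hnRNP E1 minus IgG was 1.73 for Klhl30, 1.01 for Lce1f and 0.47 for Ak1, and it was -0.59 for Ctla2a and -0.36 for Ctse. The libraries of both antibodies overlapped for each of the 8.

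**Figure D4:**
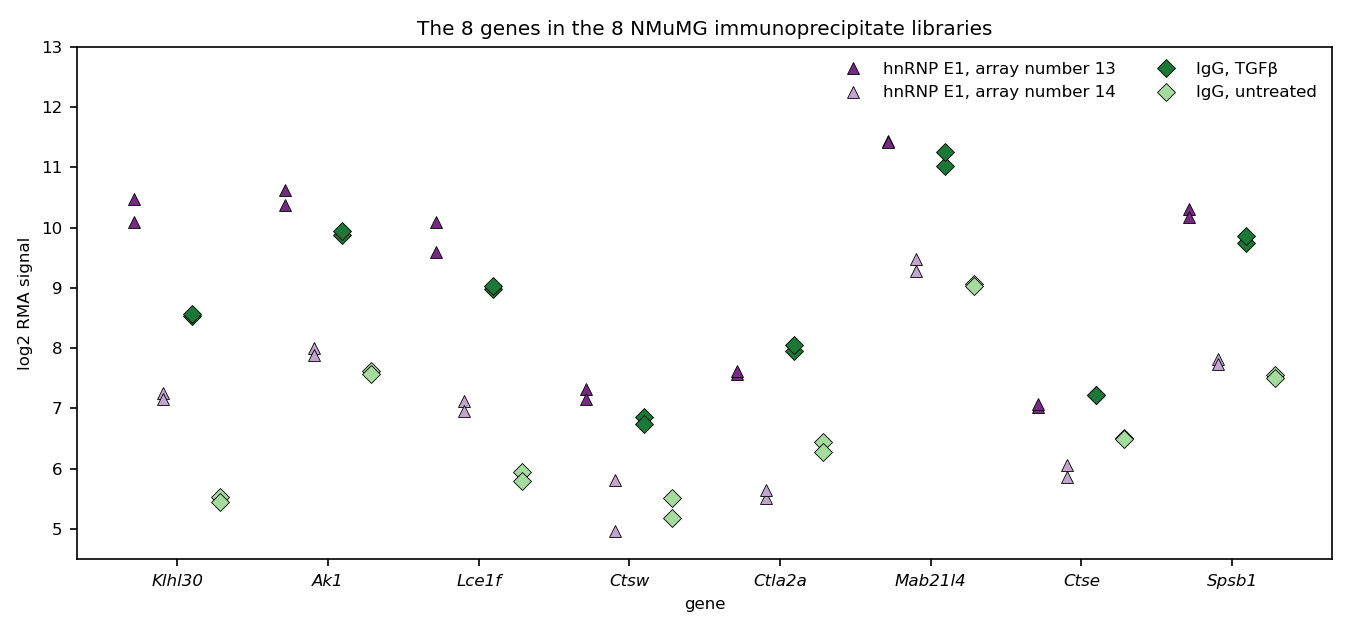
Log2 RMA signal of the 8 genes in each of the 8 immunoprecipitate libraries of NMuMG cells: hnRNP E1 by array number (triangles) and IgG by treatment (diamonds). The number 13 libraries exceed the number 14 libraries for each gene, with 10.48 and 10.10 against 7.26 and 7.15 for Klhl30, and TGFβ-treated IgG libraries exceed untreated ones.

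Other genes of the same families were counted in NMuMG polysomal RNA, where 18.8% of all probe sets rose with TGFβ and 11.3% fell. Of 23 kelch-like genes tested, 7 rose and 4 fell, shares not far from those of all probe sets, and after Klhl30 the largest called change was -1.0, of Klhl15. Of 9 late cornified envelope genes Lce1f alone was called there, and of 4 SPRY domain and SOCS box genes Spsb1 alone. Of 5 adenylate kinases 2 rose and 2 fell, Ak3 by 0.71 after Ak1. Of 12 cathepsins 4 rose and 3 fell, led by the members Ctsw and Ctse. Of 3 tested Mab-21 genes 1 rose, Mab21l4, and Mab21l3 fell by 1.04. Late cornified envelope genes were also called elsewhere. In IgG libraries 3 of the 9 were higher with TGFβ, Lce1f among them, and none lower, where 2.91% and 3.26% of probe sets were. In NMuMG monosomal RNA 7 of the 9 rose, Lce1f not among them, and none fell, where 34.3% and 41.1% of probe sets did.

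Ctla2b, the neighbour and close relative of Ctla2a at chr13:60895351-60897934, followed it. Ctla2b was 3.02 higher with TGFβ in NMuMG polysomal RNA (SE 0.33, limma adjusted p = 6.03e-06), 1.61 higher in IgG libraries (limma adjusted p = 0.00229) and 5.11 higher in untreated E1KD than in untreated NMuMG polysomal RNA (limma adjusted p = 3.68e-09). The sequences are alike, and the array also has a probe set annotated to both, so hybridization of Ctla2a RNA to the Ctla2b probes cannot be told apart from Ctla2b itself.

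Known TGFβ targets served as a yardstick for the response. In NMuMG polysomal RNA 13 of the 18 tested rose and 2 fell, where 18.8% and 11.3% of all probe sets did. Thbs1, which encodes thrombospondin, was 2.78 higher, the integrin gene Itgb6 2.25, Bhlhe40 2.12 and Rhob 1.98, where the 8 genes ran from 1.76 to 4.07. In E1KD total RNA, where 11.4% of probe sets rose and 9.75% fell, 12 rose and 1 fell, with Id2 at 2.64, Tagln at -2.11, Id1 at 1.68 and Il11 at 1.21, so a TGFβ response was measured in E1KD cells too. In IgG libraries, where 2.91% of probe sets were higher and 3.26% lower, 13 were higher and 2 lower, led by Il11 (2.00), Rhob (1.48) and Fn1 (1.22).

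Markers of the tissues where some of the 8 genes are known were counted too. Of 10 cytotoxic lymphocyte genes 3 passed the filter, Cd3e (5.01 to 6.83), Cd8a (4.65 to 6.60) and Prf1 (5.42 to 6.58), and Ptprc, Cd2, Cd3g, Gzma, Gzmb, Klrd1 and Nkg7 did not. The mean signal of that list ran from 4.12 to 5.17 in the 32 arrays, and 1 gene rose in NMuMG monosomal RNA, while none of its genes was called with TGFβ in NMuMG polysomal RNA or in IgG libraries. Of 9 skeletal muscle genes 6 passed, Myod1, Tnnt3 and Myh4 did not, and the mean ran from 5.31 to 6.39. The actin gene Acta1 of that list moved with the cell line, being 5.29 higher in untreated E1KD polysomal RNA (limma adjusted p = 5.13e-12), and fell by 1.89 with TGFβ in E1KD total RNA (limma adjusted p = 2.80e-06), where Klhl30 fell too. Its part in the result was not tested. Of 9 cornifying keratinocyte genes 7 passed, and Flg and Tgm1 did not. In NMuMG polysomal RNA 1 of the 7 rose with TGFβ and 2 fell, where 18.8% of probe sets rose and 11.3% fell. In E1KD total RNA 2 of the 7 rose and none fell, where 11.4% of probe sets rose and 9.75% fell. Sprr1a fell by 1.41 with TGFβ in NMuMG polysomal RNA and rose by 2.33 in E1KD total RNA. Of 6 gastric surface genes Anxa10 fell by 1.70 and Tff2 fell by 0.64 in NMuMG polysomal RNA, and none rose. In NMuMG monosomal RNA, where 34.3% of probe sets rose and 41.1% fell, 5 of the 6 gastric genes rose and 1 fell, 4 of the 6 muscle genes tested rose and none fell, and 3 of the 7 keratinocyte genes tested rose and 3 fell.

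Across the 24 arrays of total and pooled RNA the 8 genes made 28 pairs, with r from -0.371 to 0.982 and a median of 0.617. These values describe 12 conditions with 2 arrays each, which share cell line, treatment and pool. Ak1 and Ctsw were the most alike, with r = 0.982, and Klhl30 and Ctsw had 0.942. Outside the 8, Ctla2a was closest to 4930486L24Rik (0.973) and Ccn4 (0.950), Ak1 to the transglutaminase gene Tgm2 (0.947), and Klhl30 to Atp6v1g1 (0.935). Mab21l4 was closest to Traip (0.930) and Ddit4 (0.917), Spsb1 to Pdgfa (0.929) and Septin9 (0.904), and Lce1f to Tuba1a (0.922) and Il11 (0.904). Ctse had the least close neighbours, Nck2 (0.867) and Cnot8 (0.859).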

How the data were processed

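RNA was hybridized to the Affymetrix Mouse Genome array. The authors deposited log2 RMA signals of the 32 arrays, made with Affymetrix Expression Console (RMA and MAS5 are named in the submitters' processing notes), and no further normalization was applied. Signals depend on the probes, so levels were not compared between genes, and the number of arrays limits the precision. Samples were grouped by their titles. Symbols came from the platform annotation, updated to RefSeq GRCm38.p6 through Entrez identifiers: of 45037 probe sets, 34945 had 1 symbol, 932 several and 9160 none.

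The tests were those of limma 3.58.1 (lmFit and eBayes, 2-sided) under R 4.3.3. The 24 arrays of total and pooled RNA shared a fit (12 residual degrees of freedom), and the 4 IgG arrays had their own (2), with Benjamini-Hochberg adjustment over the 25432 probe sets kept and a threshold of 0.05. The procedure was tested on simulated data. The members and gene lists were chosen with earlier results of these data known. Named genes were the members, up to 2 of the largest called changes of each family and 4 of the TGFβ targets, the 2 genes most correlated with each member, and genes next to the members in the ranking; Il11, Acta1, Sprr1a, Anxa10 and Tff2 are named from the fixed lists after their values were seen. Alternatives were other filters, scalings, sets of arrays, a replicate block, an intensity trend, other probe sets and leaving out each array.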

Additional observations from a re-analysis of the deposited data

Results flagged for a closer look

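By the probe set that stands for each gene, the TGFβ response of polysomal RNA differed between the lines for the 8, by the interaction test. The genes were chosen for a large NMuMG response in total RNA, which favours a negative difference here too. E1KD minus NMuMG was -3.28 for Klhl30, -2.07 for Ak1, -1.72 for Lce1f, -1.42 for Ctsw, -1.72 for Ctla2a, -2.06 for Mab21l4, -1.52 for Ctse and -1.70 for Spsb1 (log2). In 3 further cases the arrays of the lines lay on opposite sides, and these differences were not tested. In total RNA both treated arrays were below both untreated arrays in E1KD and above them in NMuMG for Klhl30 and Ctse, and E1KD minus NMuMG was -5.97 for Klhl30 and -2.49 for Ctse. The NMuMG response in these differences is the one that chose the genes, so it is large by the choice. Within E1KD the Klhl30 difference was called, and that of Ctse was not (-0.23, limma adjusted p = 0.629) and was 0.41 when centred on Actb and Gapdh. In monosomal RNA both treated Spsb1 arrays were above both untreated arrays in E1KD and below them in NMuMG, with a difference of 1.45. The E1KD difference was not called (0.35, limma adjusted p = 0.0920), and this holds for 1 probe set: the second was higher with TGFβ in both lines (0.53 in E1KD and 0.99 in NMuMG), and the third had 0.95 in E1KD and -0.26 in NMuMG, where its arrays overlapped.

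The hnRNP E1 libraries, which entered no comparison of treatment, lay above each untreated IgG library for 5 genes. The share of all probe sets for which they did is not given here. The choice favours genes that are low in untreated NMuMG cells, so it may favour this count. The lowest of the 4 hnRNP E1 libraries read 7.15 for Klhl30, 7.88 for Ak1, 6.95 for Lce1f, 9.28 for Mab21l4 and 7.73 for Spsb1, against a highest untreated IgG library of 5.53, 7.62, 5.94, 9.06 and 7.56 in the same order. Each of these lowest values was below the highest IgG library of TGFβ-treated cells.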

How the results depend on the processing

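Over 1136 combinations of a member, a comparison and an alternative, 1016 kept their direction and side of the threshold, 103 lost the call, 9 gained one and 8 changed sign. The rise of the 8 genes in NMuMG polysomal RNA (96 of 96) and their polysome shift (128 of 128) kept direction and call under each alternative run, other probe sets aside. The causes of the changes below were not tested.

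Centring on Actb and Gapdh gave 15269 called probe sets in E1KD total RNA (5385 as reported), 4227 in NMuMG polysomal (7646), 93 in E1KD polysomal (1131), 6593 in E1KD monosomal (10004), 905 in the polysomal interaction (4040) and 916 in IgG libraries (1570). It left 0 members lower in E1KD total RNA, 1 higher in NMuMG monosomal, 1 higher in E1KD polysomal and 1 lower in polysomal over monosomal RNA of treated NMuMG cells. Ctse then had 0.41 in E1KD total RNA and -0.11 between the untreated lines, and Lce1f -0.27 in NMuMG monosomal RNA. Of all calls in E1KD total RNA 98% were higher when centred, 54% as reported, in NMuMG monosomal RNA 20.1% and 45.5%, in IgG libraries 77.9% and 47.1%. The median of all probe sets moved by 0.46 in the polysome shift, 0.24 in polysomal over monosomal RNA of treated E1KD cells and 0.19 in IgG libraries. Quantile normalization gave Ctse -0.05 between the untreated lines.

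A fit of only the arrays compared called 8665 probe sets in E1KD total RNA, 2748 in NMuMG polysomal, 1 in E1KD polysomal with 0 members, 7085 in polysomal over monosomal RNA of treated NMuMG (12649 as reported) with 2 members lower, and 1040 in the interaction, and 1 member was lower in E1KD monosomal RNA. Without the filter 658 were called in E1KD polysomal RNA and 1037 in IgG libraries. For IgG libraries limma called 878 in a fit of 28 arrays, 3381 with an intensity trend, and 1 with 0 members in a fit of the 8 immunoprecipitation arrays as titled (1765 at an unadjusted p under 0.05, 5 of them members).

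The replicate number as a block gave 0 calls and 0 members in IgG libraries (5497 and 8 at an unadjusted p under 0.05) and moved no other count of calls by over 1.5 times. Same-numbered arrays had deviations that correlated by -0.38 to 0.32, without a common sign, so whether the numbers pair the samples cannot be told. Crossing the numbers, chosen after seeing the data, gave 13168 calls between the untreated lines in polysomal RNA (12632 as reported).

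Leaving out single arrays gave 3239 to 3387 calls and 3 to 4 members higher in E1KD total RNA, 323 to 678 and 1 to 3 in E1KD polysomal RNA, and 0 to 0 calls and 0 to 0 members in IgG libraries. In polysomal over monosomal RNA of treated NMuMG cells it left 1 to 2 members higher and 3 to 5 lower. Ctla2a had -0.04 to 0.53 in E1KD total RNA, lowest without the second treated array, and Ctse had -0.14 to 0.62 in E1KD polysomal RNA, lowest without the first untreated array. Between the untreated lines Ctse had -0.33 to 0.45, with -0.33 without the first NMuMG array and -0.32 without the second E1KD array.

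The second probe set of Ctse gave 0.36 in E1KD total, -0.09 in E1KD polysomal and 0.23 in E1KD monosomal RNA and -0.19 in IgG libraries. The second of Spsb1 gave -0.27 in E1KD total RNA, 0.99 in NMuMG monosomal RNA, -0.22 and -0.30 in polysomal over monosomal RNA of treated NMuMG and E1KD cells, -0.94 in the shift, -0.49 between the untreated lines and 0.14 in the interaction, and the third gave -0.40 in polysomal over monosomal RNA of treated E1KD cells. The members' median in NMuMG total RNA was 2.36 by quantile normalization and 2.83 centred (2.57 as reported), between the untreated lines 2.74 and 3.14 (3.06), and in the difference of the total response -1.90 and -1.77 (-2.14). Grouped by array number the hnRNP E1 libraries had a median difference of -2.26, against -0.06 as titled.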
